A study of Homo sapiens with 6 samples.

Results

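CD274 encodes PD-L1, the checkpoint ligand that tumour cells present to PD-1 on T cells, and it was examined here together with 39 genes of the interferon response and of antigen presentation. The 40 genes were taken by symbol from the 26485 gene symbols counted by RNA-seq, and all 40 were found. The cells were A549, a human lung adenocarcinoma line, carrying dCas9-KRAB (a catalytically dead Cas9 joined to a transcriptional repressor domain) under puromycin selection and rat Nkx2-1 from a PGK-promoter lentivirus with an EGFP reporter, sorted for GFP. Both groups therefore carried dCas9-KRAB and Nkx2-1, and both received a synthetic sgRNA by transient transfection. One group (3 libraries) received sgRNA #2, which directs CRISPRi to the first intron of SFTPB, and the other (3 libraries) received the non-targeted sgRNA control. A library of untransfected cells was not analysed here, so a level relative to cells without synthetic RNA could not be given, and a response shared by both groups would not appear in the comparison. In bulk RNA, a change in the number of cells of a kind and a change in RNA per cell cannot be told apart. The question was whether CD274 differed between the groups and whether the interferon genes differed with it.

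Interferons are secreted proteins, and most of the type I and type III kinds are released when cells sense foreign RNA or DNA. Type I and type III interferons act through the kinases JAK1 and TYK2 on factors such as STAT2, which joins IRF9 in a complex that binds the interferon-stimulated response element (ISRE) of antiviral genes. Interferon gamma acts through JAK1 and JAK2 to turn on genes with a GAS element, IRF1 among them, and IRF1 and NLRC5 in turn drive the genes of class I antigen presentation. CD274 is a well-known target of interferon gamma in tumour cells and also responds to NF-kB, the factor behind inflammatory chemokines such as CXCL8.

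The libraries held 6047554 to 7584611 reads assigned to genes, and 3 counts, taken as the floor of detection, corresponded to 0.396 to 0.496 CPM (counts scaled to a common library size); this floor covers counting error only. Replicate libraries of a group were further apart than counting noise alone allows (chi-square over its degrees of freedom, 2.73 to 3.607). The targeted gene checked the labels: SFTPB, which encodes surfactant protein B, was at 407.7 to 427.3 CPM with the sgRNA control and at 5.690 to 8.162 CPM with sgRNA #2. The epithelial markers EPCAM, KRT8, KRT18 and CDH1 were counted in all 6 libraries, and the leukocyte markers PTPRC and CD3E were at 0 in all of them. A further 2 leukocyte markers, CD14 and ITGAM, lay between 7 and 23 counts, while among endothelial and fibroblast markers PECAM1, VWF and COL3A1 had at most 3 counts and COL1A1 had 36 to 58. CDH1, which encodes E-cadherin, was lower with sgRNA #2 (log2 fold change -0.34, Benjamini-Hochberg adjusted p = 0.0073, edgeR quasi-likelihood test).

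To show what sgRNA #2 reads and whether the same letters occur at the members' own promoters, its target and the letters searched are given with the promoter of CD274. The target lies at chr2:85668529-85668551 of hg38, on the minus strand, and is printed with the 10 bases next to the PAM in capitals.
sgRNA #2 target: gggatgggagGGGAACACCCagg
A match to the full target was found at 1 place in the genome. Promoters were RefSeq windows on GRCh38.p14 from 250 bases before to 50 after each start, and 34 of the 40 members had 1 or more, in all 44 windows. The letters GGGAACACCCNGG, the 10 capital bases followed by NGG, were present on either strand in 3 of all 35116 windows and in 0 of the 44 windows of members. They were also in 0 of 115 windows of 83 of the other pathway genes. A match or its absence in these windows describes only these letters there.

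The promoter of CD274 is shown because CD274 is the gene in question. It lies at chr9:5450292-5450591 on the plus strand, 5′ to 3′, and capitals mark the ISRE core (GAAANNGAAA, found here on the opposite strand).
CD274: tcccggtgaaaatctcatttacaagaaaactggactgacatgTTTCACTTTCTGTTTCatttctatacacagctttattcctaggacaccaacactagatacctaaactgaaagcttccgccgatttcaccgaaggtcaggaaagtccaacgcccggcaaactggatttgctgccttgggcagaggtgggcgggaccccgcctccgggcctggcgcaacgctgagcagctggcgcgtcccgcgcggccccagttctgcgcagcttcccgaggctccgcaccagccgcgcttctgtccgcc
The window held 2 overlapping ISRE cores, at -208 to -199 and -202 to -193 from the start, and 1 match to the GAS letters TTCNNNGAA at -125 to -117. Among the members, 27 of 44 windows (61.36%) held the ISRE core, against 1255 of 35116 windows of all genes (3.574%). The GAS letters were in 14 of 44 windows of members (31.82%) and in 7.657% of all windows. Windows of 1 gene can overlap and share a match. By gene, 23 of 34 members (67.65%) held the ISRE core, against 4.376% of all genes with a window. The members were chosen as genes of the interferon response and antigen presentation, so these shares describe the list and test nothing. Both motifs were searched on both strands, and overlapping matches were counted. For comparison, OAS1 is shown, which encodes a sensor of double-stranded RNA that makes the activator of RNase L. Its window at chr12:112906712-112907011 on the plus strand had no match to the exact ISRE core letters. The same window held 1 GAS match at -168 to -160. It also held GAAACGAAA, a GAAA repeat with a shorter gap than the letters searched require. The missing match therefore does not mean that OAS1 lacks an ISRE.
OAS1: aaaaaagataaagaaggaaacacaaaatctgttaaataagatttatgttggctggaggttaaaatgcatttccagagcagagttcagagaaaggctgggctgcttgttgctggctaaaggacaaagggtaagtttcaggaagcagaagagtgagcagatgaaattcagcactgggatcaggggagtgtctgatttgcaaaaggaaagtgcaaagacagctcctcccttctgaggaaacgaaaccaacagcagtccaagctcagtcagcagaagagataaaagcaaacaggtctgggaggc
IFIT3, which encodes an antiviral RNA-binding partner protein of IFIT1, has 2 RefSeq starts, and the window at chr10:89327747-89328046 on the plus strand held 2 ISRE cores, separated by unmatched bases.
IFIT3: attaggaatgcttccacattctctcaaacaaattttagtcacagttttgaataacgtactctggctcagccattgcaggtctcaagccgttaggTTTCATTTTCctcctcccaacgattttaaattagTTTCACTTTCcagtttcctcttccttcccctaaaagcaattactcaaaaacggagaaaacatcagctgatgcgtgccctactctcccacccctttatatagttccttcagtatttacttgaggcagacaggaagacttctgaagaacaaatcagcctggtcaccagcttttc
TAP1 (a subunit of the peptide transporter) and PSMB9 (an immunoproteasome subunit) are transcribed away from each other from neighbouring starts, so their windows are shown together. Of 2 TAP1 windows, the one next to PSMB9 at chr6:32853655-32853954 on the minus strand held 2 overlapping ISRE cores, and the PSMB9 window at chr6:32853942-32854241 on the plus strand held none.
TAP1: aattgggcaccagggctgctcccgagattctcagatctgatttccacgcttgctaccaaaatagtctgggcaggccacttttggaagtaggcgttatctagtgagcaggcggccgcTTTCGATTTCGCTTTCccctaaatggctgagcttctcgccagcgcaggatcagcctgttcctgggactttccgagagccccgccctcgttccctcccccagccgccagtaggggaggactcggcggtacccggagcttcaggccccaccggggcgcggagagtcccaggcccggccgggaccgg
PSMB9: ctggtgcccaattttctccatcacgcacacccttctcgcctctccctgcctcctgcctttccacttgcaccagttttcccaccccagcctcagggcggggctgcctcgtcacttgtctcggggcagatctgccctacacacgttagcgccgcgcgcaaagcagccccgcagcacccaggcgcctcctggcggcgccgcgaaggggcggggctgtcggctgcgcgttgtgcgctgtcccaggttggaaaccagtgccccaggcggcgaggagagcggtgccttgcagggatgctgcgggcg
The map of motif positions shows the members with 1 window. No window was available here for IRF7, IFIT2, OAS2, OASL, NLRC5 and HLA-E.

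**Figure D1:**
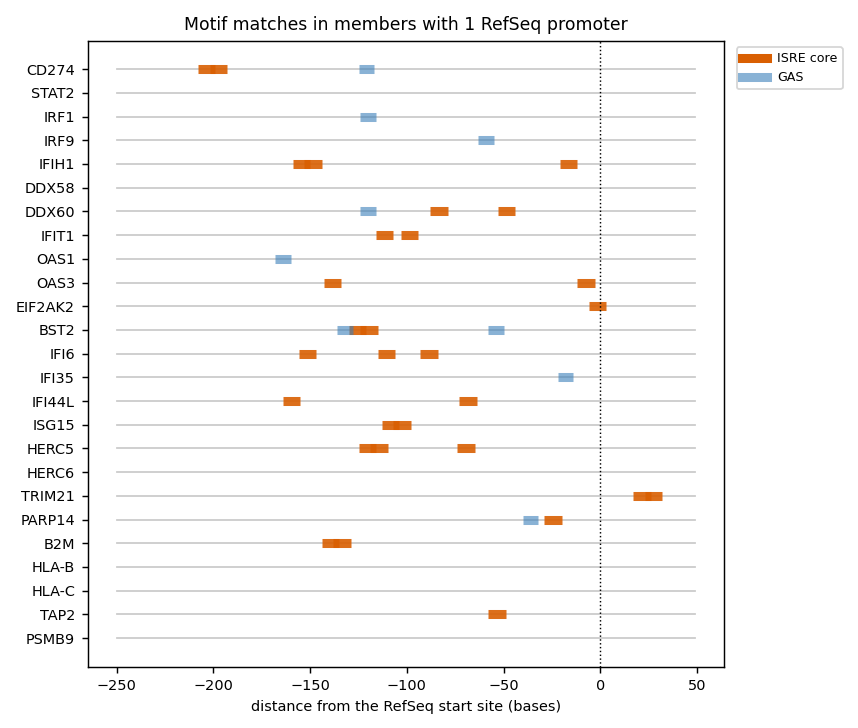
Positions of ISRE core (orange) and GAS (blue) letter matches, in bases from the RefSeq start (dotted line at 0), for the 25 members with 1 RefSeq promoter window; each grey line is 1 window from 250 bases before to 50 after the start. CD274 carries 2 overlapping ISRE cores and 1 GAS match, while OAS1 carries a GAS match and PSMB9 neither.

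CD274 was counted well above the floor in all 6 libraries, and its level with sgRNA #2 was above that with the sgRNA control on average, but the difference did not pass the test across genes. The counts were 233, 213 and 229 with the sgRNA control and 329, 254 and 216 with sgRNA #2. Scaled for library size, these were 37.1, 30.2 and 30.1 CPM (mean 32.5 ± 4.02, SD, n = 3) and 46.8, 38.2 and 36.0 CPM (mean 40.3 ± 5.73, SD, n = 3). The groups overlapped, since the lowest sgRNA #2 library, at 36.0 CPM, lay below the highest control library, at 37.1 CPM. The log2 fold change, given throughout as sgRNA #2 minus sgRNA control, was 0.32 (standard error 0.116, 95% interval 0.08 to 0.57), a ratio of 1.25. In the quasi-likelihood test of edgeR, its p was 0.0132 before and 0.231 after Benjamini-Hochberg adjustment over 13356 genes. A two-sided exact permutation test of the 3 libraries against 3 gave p = 0.2, and the smallest p it allows is 0.10.

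The result for CD274 depended on whether libraries of the same replicate number were treated as pairs. Within each number, CD274 was higher with sgRNA #2, by 0.33, 0.33 and 0.25 on the log2 CPM scale. Across all genes, libraries of the same number deviated together from their group means (correlations 0.2687, 0.2867 and 0.2913). When that number entered the model as a block, the log2 fold change was 0.31 and the adjusted p was 0.00445 from edgeR and 0.00423 from limma-voom, while DESeq2 gave 0.477 with the block and 0.434 without it (all with Benjamini-Hochberg adjustment). In the edgeR fit with the block, the prior degrees of freedom were estimated as infinite, against 13 without it, so its p-values rest on the trend of dispersion over all genes. Without replicate number 1, the fit with the block gave an adjusted p of 0.0729 from edgeR with Benjamini-Hochberg adjustment. Without the block, leaving out sgRNA #2 replicate 1 gave the lowest log2 fold change, 0.20. GENCODE release 44 places CD274 at chr9:5450503-5470566 on the plus strand, overlapped by 1 gene on the opposite strand, and the strand setting of the counting is not given in the sources used here, so reads of that gene could be included.

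Of the 40 members, 35 had at least 10 counts in at least 3 libraries and were tested, and 0 passed a Benjamini-Hochberg adjusted p under 0.05 in the edgeR quasi-likelihood test, where 2.69% of all genes tested passed (0.464% higher, 2.22% lower). The cut-offs of the study, which add a log2 fold change of at least 1 in size, were passed by 0 members and by 0.719% of all genes tested. At such shares, each role described below holds too few genes for a count of 0 past the test to be informative. At an unadjusted p under 0.05 there were 4 members, CD274, OAS1, IFIT3 and PSMB9, against 11.1% of all genes tested. DESeq2 called 0 of the 35 without the block and 0 with it, where it called 2.26% and 2.53% of all genes. With the block, edgeR called 3 members, CD274 and OAS1 higher (background 3.97% higher) and PSMB9 lower (background 6.06% lower), where 10.0% of all genes passed in either direction. The limma-voom fit with the block called CD274 and OAS1 alone among members, with a background of 10.0% in either direction (4.03% higher, 6.0% lower).

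The differences of the members were small on either side of 0. The median log2 fold change of the 35 tested members was -0.05, beside 0.00 over all genes tested, with 12 members above 0 and 23 below. The 95% interval lay within a 2-fold difference for 32 of the 35, the others being MX1, IFI44 and PSMB9, and within 1.5-fold for 26. For 5 of the 35, every library of one group lay above every library of the other (14.29%), IFIH1 and OAS1 higher and IFIT3, HLA-B and PSMB9 lower, against 15.6% of all genes tested. The 19 tested members with an ISRE core in a promoter window had a median log2 fold change of -0.02 (from -0.42 to 0.33). The 11 tested members with windows but no match to the exact ISRE core letters had a median of -0.02 (from -0.72 to 0.28). OAS1 and DDX58 were among these 11 although their windows hold GAAACGAAA, so the split does not separate genes with and without an ISRE.

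**Figure D2:**
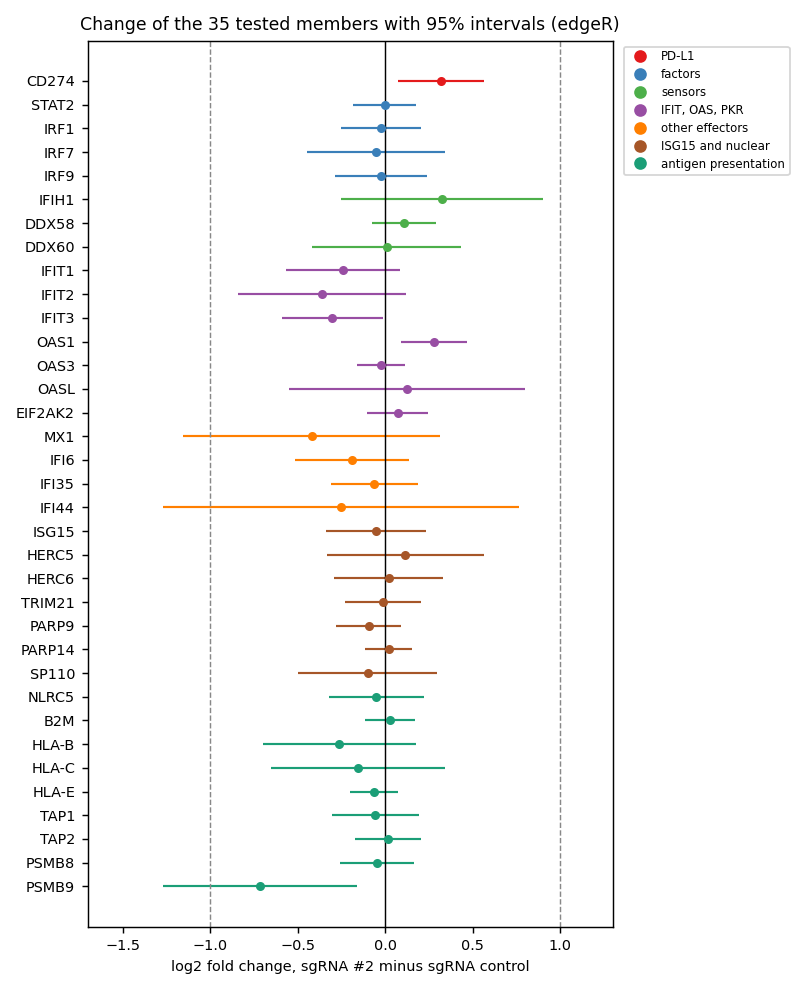
Log2 fold change (sgRNA #2 minus sgRNA control, points) and 95% interval (bars) from edgeR for the 35 tested members, coloured by role; dashed lines mark a 2-fold difference. The intervals of CD274, OAS1, IFIT3 and PSMB9 do not reach 0, and 32 of the 35 lie inside the dashed lines.

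The factors that carry interferon signals to the genome were nearly level between the groups, and 0 of 4 passed the test. STAT2, a factor of the type I response, had 368, 485 and 473 counts with the sgRNA control and 411, 454 and 378 with sgRNA #2. Its log2 fold change was -0.00 (95% interval -0.18 to 0.18), with overlapping groups and a sign that turned with the scaling and with the block. IRF7, the amplifier of type I interferon genes, had 46, 58 and 54 counts with the sgRNA control and 43, 49 and 51 with sgRNA #2. Its log2 fold change was -0.05 (95% interval -0.45 to 0.34). IRF1 and IRF9 lay at -0.02 each, and the median of the 4 factors was -0.02.

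Of the sensors of cytoplasmic RNA, 3 of 3 were tested, 0 passed, and their median log2 fold change was 0.11. IFIH1 (MDA5, a sensor of long double-stranded RNA) was low, with 15, 19 and 16 counts with the sgRNA control and 19, 22 and 18 with sgRNA #2. On the CPM scale these were 2.39, 2.69 and 2.10 against 2.70, 3.30 and 2.998, so the groups were separate by a narrow margin. The log2 fold change was 0.33 with a 95% interval from -0.25 to 0.90 (Benjamini-Hochberg adjusted p = 0.758, edgeR). DDX58 (RIG-I, a sensor of RNA with a 5′ triphosphate) had 304, 342 and 377 counts with the sgRNA control and 366, 382 and 289 with sgRNA #2, with a log2 fold change of 0.11. DDX60, a helicase linked to these sensors, was at 0.01.

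Among the IFIT, OAS and PKR effectors, which bind foreign RNA or shut down translation, OAS1 lay higher and the IFIT genes lower on average, and 0 of 7 tested members passed the test. OAS1 was at 40.1, 39.7 and 36.8 CPM with the sgRNA control and 44.8, 50.3 and 46.5 CPM with sgRNA #2, with no overlap. Its log2 fold change was 0.28 (standard error 0.0892, Benjamini-Hochberg adjusted p of edgeR 0.139 without the block and 0.00551 with it). In the edgeR fit with the block, OAS1 was past the threshold without replicate number 1 (adjusted p = 0.00814, Benjamini-Hochberg) and not past it without number 2 (0.0741) or number 3 (0.131). One other gene overlaps OAS1 on the opposite strand. OAS3, of the same family and with the highest level per kilobase of this group, had 1545, 1747 and 1693 counts with the sgRNA control and 1714, 1519 and 1391 with sgRNA #2, with a log2 fold change of -0.02 (95% interval -0.16 to 0.11). The same-family genes OAS1 and OAS3 thus had intervals of 0.09 to 0.47 and -0.16 to 0.11, and their difference was not tested.

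The IFIT genes are among the most inducible targets of type I interferon, and IFIT1 and IFIT3 were added to the named genes after their values were seen. IFIT1, which binds RNA without the host cap, had 159, 113 and 142 counts with the sgRNA control and 109, 122 and 100 with sgRNA #2 (log2 fold change -0.24). IFIT2 had 53, 36 and 47 counts against 35, 39 and 26 (log2 fold change -0.36, 95% interval -0.84 to 0.12). IFIT3 had 143, 133 and 133 counts against 120, 93 and 100 (log2 fold change -0.30, 95% interval -0.59 to -0.01, Benjamini-Hochberg adjusted p = 0.403, edgeR). The groups overlapped for IFIT1 and IFIT2 and not for IFIT3. Control replicate 1 was the highest of the 6 libraries in CPM for all 3 genes, and without it the log2 fold changes of IFIT1, IFIT2 and IFIT3 were -0.05, -0.16 and -0.19. For IFIT1 and IFIT2 the sgRNA #2 library of replicate number 2 lay above its control, by 0.19 and 0.18 in log2 CPM. OASL and EIF2AK2 (PKR, a kinase that halts translation) lay at 0.13 and 0.07, with overlapping groups.

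Several classical interferon-induced effectors were at or near the floor in both groups. Over the 6 libraries OAS2 had 1 to 8 counts, RSAD2 (viperin) 0 to 4, BST2 (tetherin) 0 to 3, IFI27 2 to 5 and IFI44L 0 to 5. These 5 members were not tested. MX1, a dynamin-like antiviral GTPase, had 13, 11 and 16 counts with the sgRNA control and 8, 12 and 8 with sgRNA #2, with a log2 fold change of -0.42 and a 95% interval from -1.15 to 0.31. IFI35, the highest of these effectors per kilobase, had 133, 170 and 197 counts against 150, 168 and 131 (log2 fold change -0.06). The 4 tested genes of this role had a median log2 fold change of -0.22, with 0 of 4 past the test and overlapping groups for all 4.

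ISG15 and the genes for ubiquitin-like, ADP-ribose and nuclear body proteins were close to level, with 0 of 7 past the test and a median log2 fold change of -0.01. HERC5, the ligase that attaches ISG15 to proteins, had 28, 42 and 46 counts with the sgRNA control and 39, 47 and 32 with sgRNA #2 (log2 fold change 0.12). PARP14, an ADP-ribosyltransferase, had 1337, 1515 and 1517 counts against 1438, 1440 and 1291 (log2 fold change 0.02, 95% interval -0.11 to 0.15). ISG15 itself, a ubiquitin-like modifier, was at 21.5, 17.9 and 15.5 CPM with the sgRNA control and 17.9, 18.3 and 16.3 CPM with sgRNA #2. The groups overlapped for all 7 genes.

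The genes of antigen presentation had a median log2 fold change of -0.06, and 0 of 9 passed the test. B2M, the invariant light chain of class I molecules, had 2552, 2774 and 2894 counts with the sgRNA control and 2598, 2875 and 2418 with sgRNA #2, with a log2 fold change of 0.03 (95% interval -0.11 to 0.17). PSMB9 had 34, 34 and 28 counts with the sgRNA control and 16, 23 and 16 with sgRNA #2, or 5.42, 4.82 and 3.68 CPM against 2.28, 3.45 and 2.67. Its groups did not overlap, and it had the most negative log2 fold change of the members, -0.72 (standard error 0.263, 95% interval -1.27 to -0.16). The adjusted p was 0.245 from edgeR without the block, 0.0430 with it and 0.0561 from limma-voom with it (Benjamini-Hochberg). Leaving out any replicate number left PSMB9 short of the threshold in the edgeR fit with the block, with adjusted p of 0.451, 0.0787 and 0.0708 without numbers 1, 2 and 3 (Benjamini-Hochberg), and without number 1 the log2 fold change was -0.48. PSMB8, the neighbouring immunoproteasome gene, was at -0.05 and TAP1 at -0.06, both with overlapping groups. In GENCODE release 44, PSMB9 overlaps PSMB8, TAP1 and an antisense gene, and the antisense gene also overlaps PSMB8 and TAP1. Reads of these genes could therefore have been left out as ambiguous or assigned to a neighbour. HLA-B, HLA-C and HLA-E, which present peptides on the cell surface, were at -0.26, -0.15 and -0.06. Since class I genes resemble one another in sequence, their counts are uncertain. Over all members, 21 overlap a gene on the opposite strand and 9 a gene on the same strand.

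**Figure D3:**
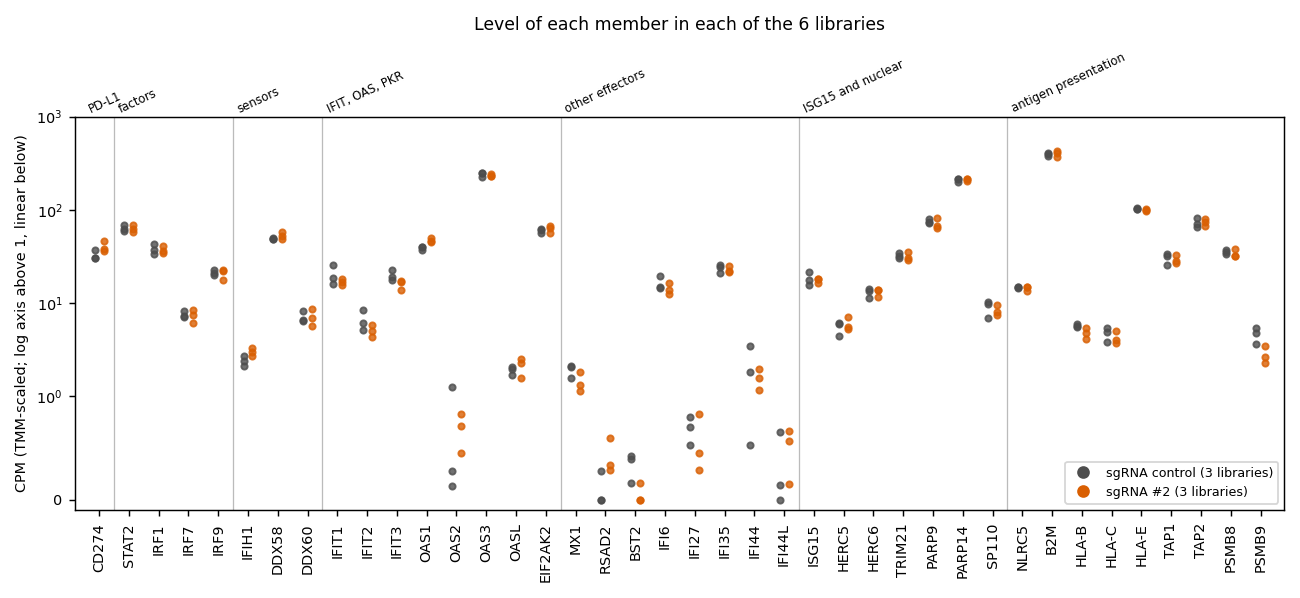
CPM of each of the 40 members in the 3 sgRNA control libraries (grey) and the 3 sgRNA #2 libraries (orange), grouped by role; the axis is logarithmic above 1 CPM and linear below. The members run from B2M at 369.6 to 431.8 CPM to OAS2, RSAD2, BST2, IFI27 and IFI44L near 0, and the grey and orange points of most members overlap.

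Levels between genes were compared as CPM per kilobase of the canonical transcript. B2M led with 421, followed by HLA-E with 39.8, OAS3 with 35.9, PSMB8 with 30.6 and ISG15 with 28.1, while CD274 ranked 18 of 40 with 10.0. IRF1, DDX58 and TAP1, at 10.5, 10.95 and 11.1, were the next above CD274, and IFIT3, at 7.45, the next below. These per-kilobase levels depend on which transcript the cells use.

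Pair by pair, CD274 lay higher with sgRNA #2 each time, while the median of the interferon genes lay on either side of 0; the difference between them was not tested. The 25 tested interferon members other than CD274 and antigen presentation had a median difference in log2 CPM of -0.11 for replicate number 1 (7 higher, 18 lower), 0.13 for number 2 (19 higher, 6 lower) and -0.01 for number 3 (12 higher, 13 lower). In the 3 pairs, 0, 2 and 4 of the 25 were higher by as much as CD274 or more. The 9 antigen presentation members had medians of -0.14, -0.04 and 0.00. Summed over the 30 interferon members, the level was 1014, 998.5 and 931.8 CPM with the sgRNA control and 957.5, 1020 and 951.8 CPM with sgRNA #2, and the groups overlapped. The summed antigen presentation level, 691.3, 659.4 and 644.9 CPM against 629.6, 696.1 and 664.5 CPM, overlapped as well. With 6 libraries in 2 groups, no correlation between CD274 and these genes was computed.

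**Figure D4:**
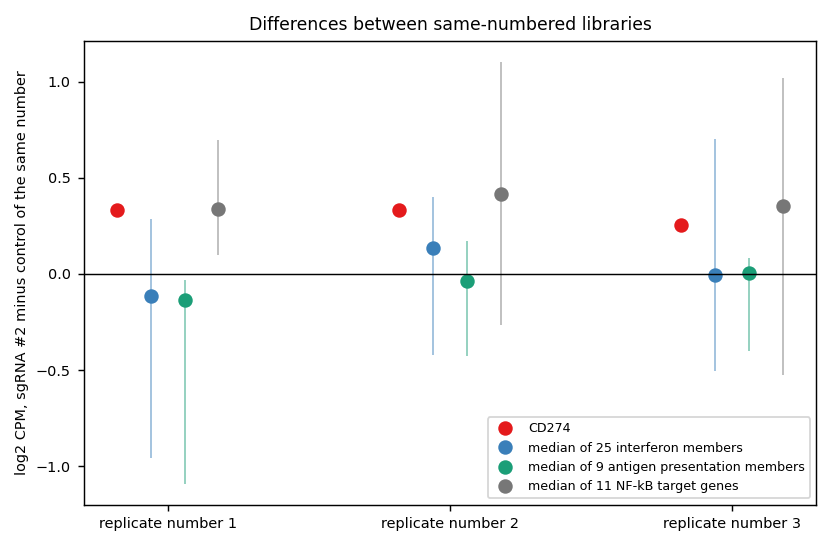
Difference in log2 CPM between the sgRNA #2 library and the control library of the same replicate number, for CD274 and for the medians (points) and ranges (lines) of 25 interferon members, 9 antigen presentation members and 11 NF-kB target genes. CD274 lies at 0.33, 0.33 and 0.25, the interferon median at -0.11, 0.13 and -0.01, and the NF-kB median at 0.34, 0.42 and 0.35.

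The rest of the pathway was read from a list of 104 further genes, of which 78 were tested, with a median log2 fold change of 0.00. Of the 78, 6 passed the edgeR test at an adjusted p under 0.05 (3 higher, 3 lower). Over all genes tested, 2.69% passed (0.464% higher, 2.22% lower). The 3 lower genes were JAK1, MB21D1 and IFI16, and the 3 higher ones were the chemokines CXCL8, CXCL1 and CXCL2. With the block, edgeR called 24 of the 78 (15 higher, 9 lower), where 10.0% of all genes passed.

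At the head of the pathway, 7 of the 9 interferon genes were at 0 in all 6 libraries, IFNB1, IFNG and the type III genes among them, and IFNA1 had at most 2 counts. A count of 0 allows a level of up to 0.396 to 0.496 CPM, depending on the library. The ligand tested was IFNE, an epithelial interferon named after its values were seen, with 42, 48 and 65 counts with the sgRNA control and 59, 63 and 53 with sgRNA #2 (log2 fold change 0.27, Benjamini-Hochberg adjusted p = 0.655, edgeR). CXCL10, a chemokine strongly induced by interferon gamma, was at 0 in all 6 libraries.

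JAK1, the kinase shared by the receptors of all 3 interferon types, fell with sgRNA #2. It had 1317, 1460 and 1524 counts with the sgRNA control and 1033, 1060 and 903 with sgRNA #2, with no overlap. The log2 fold change was -0.43 (standard error 0.0635, Benjamini-Hochberg adjusted p = 4.12e-04, edgeR). Of the 10 genes listed as receptors and kinases, all tested, JAK1 was the gene that passed without the block, where 2.69% of all genes passed. With the block, edgeR called 5 of the 10 (2 higher, 3 lower), where 10.0% of all genes passed. The called genes included TYK2, lower, and IFNGR1 and JAK2, higher. The last 3 were named after their values were seen. Their log2 fold changes with the block were -0.24 for TYK2, 0.19 for IFNGR1 and 0.38 for JAK2. In GENCODE release 44, JAK1 overlaps 3 genes on the opposite strand and 6 on the same strand.

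MB21D1, the older symbol of the cytoplasmic DNA sensor cGAS, fell more. It had 130, 107 and 138 counts with the sgRNA control and 69, 63 and 50 with sgRNA #2, a log2 fold change of -0.96 (standard error 0.154, Benjamini-Hochberg adjusted p = 0.00115, edgeR). The groups did not overlap. It was the 1 gene of 10 tested in sensing and relay that passed. IFI16, which also binds DNA and is itself interferon-inducible, had 207, 249 and 238 counts against 178, 177 and 140 (log2 fold change -0.40, Benjamini-Hochberg adjusted p = 0.0441, edgeR), again with no overlap, and 1 of 19 tested further interferon-stimulated genes passed. The adjusted p of IFI16 was 0.135 in DESeq2 and 0.0548 to 0.188 when any library was left out in edgeR (Benjamini-Hochberg). None of the 6 feedback inhibitors, the 13 tested further antigen presentation genes or the 8 tested immune ligands and PD-L1 partners passed in edgeR without the block (0 of 6, 0 of 13 and 0 of 8), where 1, 0 and 2 of them had an unadjusted p under 0.05 and DESeq2 without the block also called none. With the block, edgeR called 1 of the 6 (SOCS3, higher), 0 of the 13 and 3 of the 8 (PVR and NT5E higher, TNFSF9 lower), and 6 of the 19 further interferon-stimulated genes (2 higher, 4 lower), where 10.0% of all genes passed. The limma-voom fit with the block also called CANX, a further antigen presentation gene, higher. CMTM6, which keeps PD-L1 at the cell surface, was at -0.05.

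The NF-kB target list, chosen for the other input of CD274, had 11 genes, all tested. It was chosen with earlier results of these data known, so its counts beside the shares over all genes are only a description. Of the 11 genes, 3 rose, 0 fell, and the median log2 fold change was 0.31. CXCL8, the neutrophil chemokine IL-8, had 219, 233 and 178 counts with the sgRNA control and 400, 476 and 288 with sgRNA #2, with no overlap and a log2 fold change of 0.96 (standard error 0.145, Benjamini-Hochberg adjusted p = 5.50e-04, edgeR). CXCL1 and CXCL2, chemokines of the same receptor, had log2 fold changes of 0.63 and 0.51 (adjusted p of 0.0169 and 0.0195 from edgeR with Benjamini-Hochberg adjustment). CXCL1 had 396, 405 and 328 counts against 689, 592 and 381, and CXCL2 had 197, 208 and 173 against 299, 263 and 220. For each of the 3 chemokines every sgRNA #2 library lay above every control library in CPM. Over all genes tested, 0.464% were called higher. With the block, edgeR called 8 of the 11, all higher, where 3.97% of all genes were called higher, and DESeq2 without the block called 2 of the 11, CXCL8 and CXCL2 (adjusted p of CXCL1 0.283, Benjamini-Hochberg). Within the replicate numbers the median difference of the 11 genes in log2 CPM was 0.34, 0.42 and 0.35, beside 0.33, 0.33 and 0.25 for CD274 itself. These values stand side by side as a description, and whether CD274 moved with NF-kB targets was not tested. CXCL1 and CXCL2 did not pass when control replicate 3, sgRNA #2 replicate 1 or sgRNA #2 replicate 2 was left out (adjusted p of 0.0618 to 0.126 from edgeR with Benjamini-Hochberg adjustment).

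**Figure D5:**
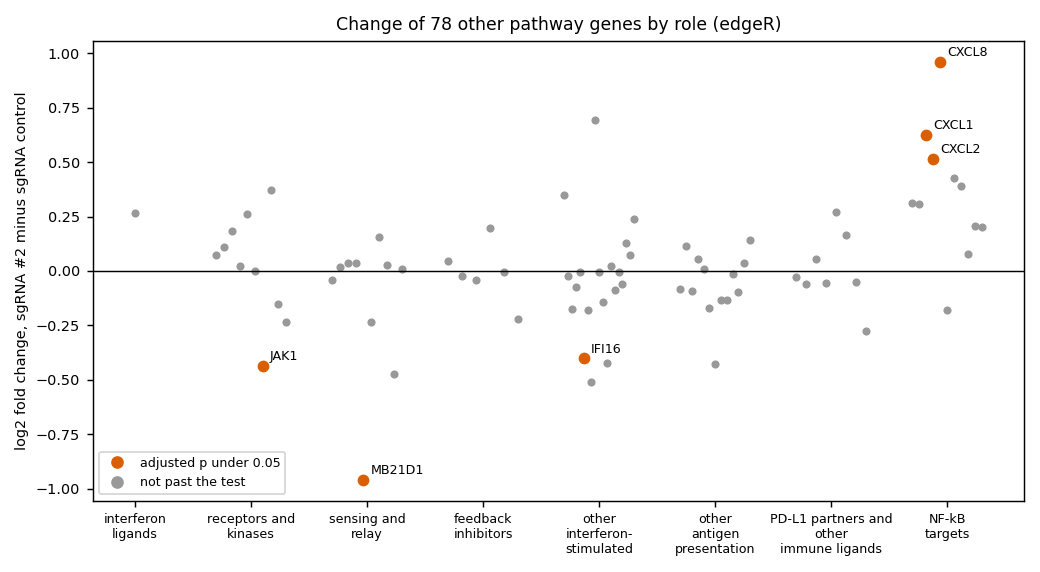
Log2 fold change (sgRNA #2 minus sgRNA control, edgeR) of the 78 tested genes of the pathway outside the members, by role; orange points passed an adjusted p under 0.05 and are named, grey points did not. JAK1, MB21D1 and IFI16 lie below 0 and CXCL8, CXCL1 and CXCL2 above, and 10 of the 11 NF-kB targets lie above 0.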

How the data were processed

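RNA was sequenced from 6 libraries of transfected A549 cells. The authors deposited raw counts of reads per gene symbol, 1 file per library, and describe the triplicates as biologically independent. The submitters' processing notes name Trim Galore, FastQC, Bowtie2 2.3.3.1, SAMtools, Picard, HTSeq and hg38, without roles. Annotation and strandedness of the counting are not given in the sources used here. Reads without a gene (19.69 to 21.09%) or ambiguous between genes (2.609 to 2.745%) stayed out of library sizes and tests, and unaligned and multi-mapping reads were listed at 0.

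Groups and replicate numbers came from the labels. The 13356 genes that reached 10 counts in 3 or more libraries were tested in R 4.3.3 with edgeR 4.0.16 (TMM, quasi-likelihood, Benjamini-Hochberg). Standard errors were the log2 fold change divided by the square root of F. Alternatives were DESeq2 1.42.0, limma-voom (limma 3.58.1), other scalings and count filters, the replicate number as a block, and leaving out libraries. The labels give each group the same replicate numbers, and because the correlation of same-numbered libraries was over 0.1 in every pair (0.2687 to 0.2913) they were treated as pairs in the fit with the block; correlations of different numbers (-0.1804 to -0.1004) follow from centring. Without a block the prior degrees of freedom were 13, with it infinite. Differences within pairs used log2(CPM + 0.5). The tests were tested on simulated data. Of the other pathway genes, STING1, CGAS and NECTIN2 were listed as TMEM173, MB21D1 and PVRL2, and the promoter of DDX58 was matched as RIGI. Positions and transcript lengths were from GENCODE release 44.

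The members and lists were chosen with earlier results of these data known. Named genes were CD274, members past an adjusted p of 0.05 with or without the block in edgeR, the member with the largest change and with the highest CPM in each role, the pathway genes past the test, and SFTPB, and every other gene printed with a value was named after its values were seen. The depth per library sets a floor of 3 counts, which covers counting error only. Part of what the lists hold is not reported here.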

Additional observations from a re-analysis of the deposited data

How the results depend on the processing

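Depth limits the low members: 5 of 40 were not tested, and intervals of MX1, IFI44 and PSMB9 reach past a 2-fold difference. No member passed both cut-offs under any of the 17 alternatives, and the median log2 fold change of all members stayed between -0.08 and 0.01. CD274 stayed above 0 in all 17, between 0.20 and 0.42, with adjusted p from 0.00423 to 0.691. The p-values of edgeR with the block or with no count filter rest on the trended dispersion alone.

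With the replicate block, edgeR counted 2 members higher and 1 lower, against 0 and 0 without it. A limma-voom fit, run only with the block, counted 2 higher and 0 lower. With the block and 1 replicate number left out, edgeR counted 1 member higher and 0 to 2 lower, the 2 being IFIT1 and PARP9 without number 2. The log2 fold change of CD274 was 0.31 with the block in edgeR and in limma-voom, and 0.2942 to 0.3361 in edgeR with the block and 1 number left out (0.2992 without number 2). Of the pathway genes, 3 higher and 3 lower became 15 and 9 with the block in edgeR and 10 to 11 and 4 to 8 in edgeR with the block and 1 number left out, and limma-voom with the block gave 16 and 9. With no count filter 7 were higher. Leaving out single libraries without the block gave 1 to 4 higher (1 without sgRNA control replicate 3, sgRNA #2 replicate 1 or sgRNA #2 replicate 2) and 2 to 3 lower. The cause of these shifts was not tested.

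Signs under the alternatives were followed only for named members, and they turned for 8 of these. Of the 8, IFIT1 was called in 1 fit (edgeR with the block, without number 2) and the others in none of the fits run. Signs of the remaining members under the alternatives were not followed. STAT2 was 0.0027 in DESeq2, 0.0021 with RLE size factors, 0.0018 with total counts, 0.00074 with the block in edgeR, 0.0044 in DESeq2 with the block and 0.00081 in limma-voom with it. Leaving out single libraries without the block gave ranges of -0.06019 to 0.06469 for STAT2, -0.1637 to 0.07201 for IRF7, -0.07325 to 0.004409 for OAS3, -0.1421 to 0.007534 for IFI35, -0.02049 to 0.1929 for HERC5, -0.01283 to 0.05023 for PARP14 and -0.02673 to 0.09038 for B2M. With the block and 1 number left out, IRF7 reached 0.04409 and 0.01892, STAT2 0.007548, OAS3 0.02176, IFI35 0.04081, PARP14 -0.02319, B2M -0.02709 and IFIT1 0.01074. Of 441 values for the 26 named genes other than CD274, 386 kept their direction and side of the threshold, 25 turned sign, 14 newly passed and 16 no longer passed. The last were IFI16, CXCL1 and CXCL2, while JAK1, MB21D1 and CXCL8 passed in all 17.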
